A study of Rattus norvegicus with 8 samples.

Results

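The genes described here are 3 ligands of the glial cell line-derived neurotrophic factor (GDNF) family (Gdnf, Nrtn and Artn), 3 co-receptors (Gfra1, Gfra2 and Gfra3), the shared receptor Ret and the transcription factor gene Etv5. They are 8 of the 17582 genes that a single symbol names on a rat gene-level expression array. Rows were selected on symbol, and for each gene the row with the highest mean signal over the 4 arrays was to be taken. Each gene had 1 row, so that choice had no effect. The set itself was chosen by biological role with earlier results of these data in view, among them the higher Ret signal with MBP, so its values are given as a description.

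Sertoli cells were taken from rat testes, grown in primary culture in serum-containing DMEM/F12 and divided into 4 groups. The control group received solvent, the NP group 0.1 µM of a compound labelled NP, the MBP group 0.1 mM of a compound labelled MBP, and the NP+MBP group both at those doses, for 24 hours. Total RNA of each group was read on 1 gene-level array. The labels used here give neither strain, age nor number of rats, and no statement on pooling, and every group is a culture of whatever cells the preparation held. With a single array per group, differences between arrays carry no estimate of replicate error, and precision is limited by how few arrays there are.

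GDNF-family ligands bind a co-receptor of the GFRA family on the cell surface, and the complex activates the receptor tyrosine kinase RET. GDNF binds GFRA1 by preference, neurturin (Nrtn) GFRA2 and artemin (Artn) GFRA3. In the testis, Sertoli cells secrete GDNF, and undifferentiated spermatogonia carrying GFRA1 and RET need it for self-renewal, as shown chiefly in mouse and rat. Etv5 encodes an ETS-family factor that acts in Sertoli cells to keep the spermatogonial niche and is itself induced by GDNF in spermatogonia.

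The promoters of 4 genes are shown because they belong to the niche ligand and to the 3 genes that were higher on both MBP arrays. They are the 250 bases before the annotated start in RefSeq, build GRCr8, written 5′ to 3′ on the strand of the gene. RefSeq windows were found for 7 of the 8 genes, all except Gfra2. Capitals mark matches, on either strand, to 6 short motifs: a cAMP response element half-site (TGACG), an ETS core (CCGGAA), an E-box (CACGTG), the N-box of HES repressors (CACNAG), a GC box (GGGCGG) and a TATA box (TATAAA).
Gdnf: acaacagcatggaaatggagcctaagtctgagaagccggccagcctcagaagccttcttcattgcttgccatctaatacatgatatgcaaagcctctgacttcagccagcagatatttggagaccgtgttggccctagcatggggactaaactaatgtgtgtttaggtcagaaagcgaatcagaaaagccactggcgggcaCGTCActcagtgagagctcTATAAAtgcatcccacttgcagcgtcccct
Gfra1: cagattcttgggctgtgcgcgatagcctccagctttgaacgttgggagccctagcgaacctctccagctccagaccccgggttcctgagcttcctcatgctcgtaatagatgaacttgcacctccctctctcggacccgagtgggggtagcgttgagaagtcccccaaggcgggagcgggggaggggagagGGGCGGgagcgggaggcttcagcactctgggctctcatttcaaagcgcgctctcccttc
Ret: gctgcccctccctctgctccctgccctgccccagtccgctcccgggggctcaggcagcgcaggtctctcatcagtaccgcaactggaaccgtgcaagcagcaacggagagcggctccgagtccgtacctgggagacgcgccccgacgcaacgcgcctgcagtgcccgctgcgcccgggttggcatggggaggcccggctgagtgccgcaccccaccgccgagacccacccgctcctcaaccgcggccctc
Etv5: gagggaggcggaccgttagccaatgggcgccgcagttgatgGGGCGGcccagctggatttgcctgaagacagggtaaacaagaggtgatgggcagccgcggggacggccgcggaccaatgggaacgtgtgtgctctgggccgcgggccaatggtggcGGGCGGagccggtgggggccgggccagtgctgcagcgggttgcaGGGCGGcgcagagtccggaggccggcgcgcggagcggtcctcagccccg
The Gdnf window lies at chr2:58621077-58621326 on the plus strand, that of Gfra1 at chr1:267555812-267556061 on the minus strand, that of Ret at chr4:153040557-153040806 on the minus strand and that of Etv5 at chr11:92113013-92113262 on the plus strand.

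The Gdnf window was 49.6% G and C and held 1 TATA box, at bases -30 to -25, and 1 cAMP half-site, at bases -49 to -45. Of 33469 rat promoter windows of the same length, 12.9% held the TATA box letters and 18.2% the half-site. The windows of Ret and Etv5 were 72.8% and 72.4% G and C, with 25 and 27 CpG pairs, against a median of 51.2% over all windows. Etv5 held 3 GC boxes and Gfra1 held 1, where 30.5% of all windows held at least 1. None of the 6 motifs was found in the Ret window. The ETS core and the E-box, present in 12.6% and 5.59% of all windows, were found in none of the 7, and the N-box, present in 37.2%, was found in those of Nrtn, Artn and Gfra3. Artn was the 1 case of overlap, where an N-box overlapped a cAMP half-site and the pair of GC boxes overlapped each other. These matches describe letters and are no evidence of binding.

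The preparation was first checked against cell type markers. Of 12 measured Sertoli cell markers, 10 had a mean signal at or above the filter, which was the median of all 27596 non-control probe sets (log2 7.50), while Amh and Gata1 lay below it. Over the 12 Sertoli markers the mean log2 signal lay between 9.44 and 9.51 on the 4 arrays. All 6 measured peritubular myoid markers, genes of contractile cells around the tubule, lay above the filter. Their mean log2 signal was higher, between 12.35 and 12.36 on the 4 arrays. Of 6 measured Leydig cell markers 2 lay above the filter, Star at a mean of 10.85 among them. Probe sets differ in affinity, so these levels do not give the share of each cell type. Genes listed as germ cell markers were low: 3 of 10 (Mael, Dmrt1 and Tex15) lay above the filter. None of them lay above the 95th percentile of intronic control sets. Which cells gave these signals, that of Dmrt1 included, was not tested. In such bulk RNA, fewer cells of a type and less RNA per cell cannot be told apart.

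All 8 genes gave weak signals. Their log2 values lay between 7.41 and 8.50, and no gene on any array exceeded the 95th percentile of the 1153 intronic control sets, which was 8.90 to 8.98. Of those control sets, 78.8% were dimmer than Gfra3 in the mean of the arrays and 91.1% were dimmer than Etv5. Probe sets differ in affinity, so this does not show absence of the transcripts. Against control, the median of the intronic sets was higher by 0.136 with NP, 0.081 with MBP and 0.125 with both, while that of the 45 antigenomic background sets was -0.109, -0.057 and -0.139 from control and that of all non-control sets -0.01 each; the part of such shifts in the differences below was not tested. The filter was passed by 7 genes. Gfra3 lay just under it at a mean of 7.47 and Nrtn just over it at 7.53. Ret was above it on the MBP and NP+MBP arrays alone, and Nrtn on the control and NP+MBP arrays alone, so for both the filter depended on the groups compared.

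**Figure D1:**
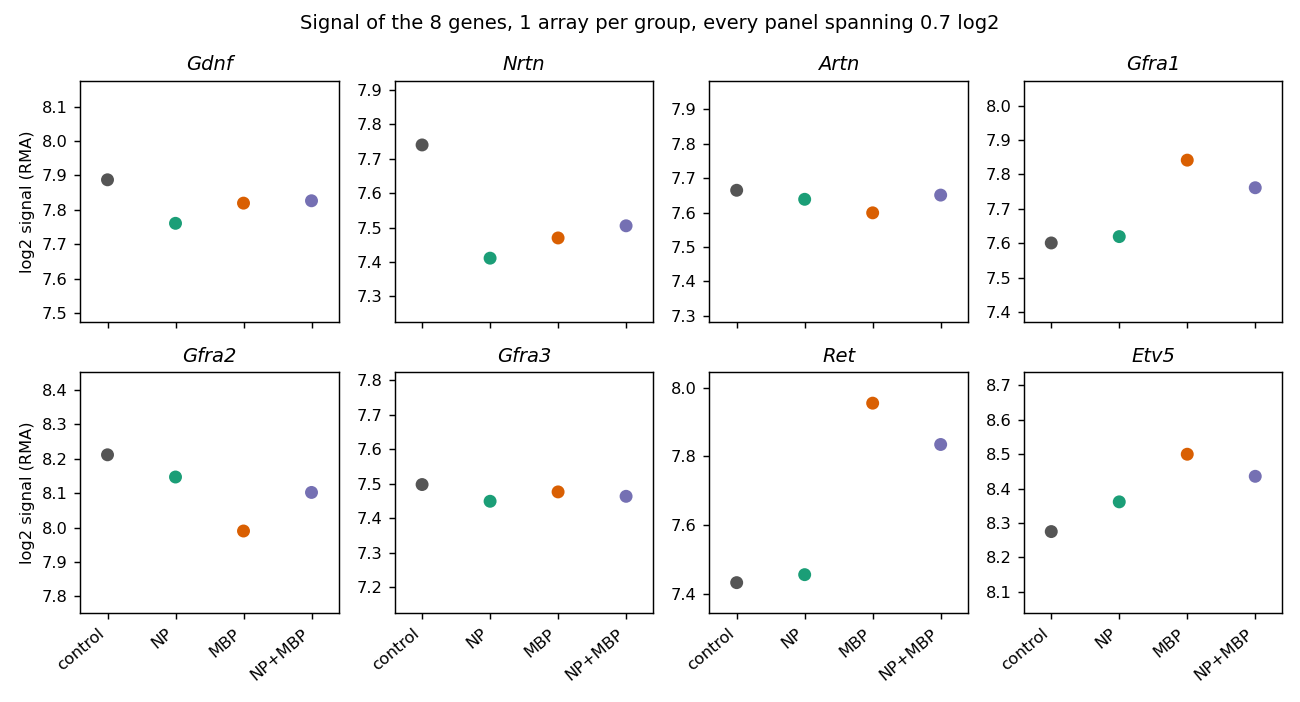
Log2 RMA signal (vertical axes, each panel spanning 0.7 log2) of the 8 genes in the 4 groups (horizontal axis), 1 point per array and no error bars, since each group has 1 array. Ret stands at 7.95 and 7.83 on the MBP and NP+MBP arrays against 7.43 and 7.46 without MBP, and Nrtn is highest on the control array at 7.74.

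The effect of each compound could be read in separate pairs from arrays that are not shared, as treated minus untreated without the other compound and again in its presence. Errors below are the SD over these 2 pairs (n = 2 pairs), and a true interaction of the compounds would enter that SD. With 2 arrays against 2, an exact permutation test cannot go below a two-sided p of 0.333, so separation of arrays is given as a count beside its share among all probe sets. Adjusted p-values are from limma's additive model of both compounds, with Benjamini-Hochberg adjustment over the 13798 sets at or above the filter. That model called 0% of sets (0 of 13798) for MBP, with 2110 unadjusted p under 0.05, and 0% for NP, with 1630.

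Among the ligands, Gdnf differed little between arrays. Its probe set spans chromosome 2 from 57399274 to 57424030 in assembly RGSC3.4, as the array annotation gives it. The log2 signal of Gdnf was 7.89 on the control array, 7.76 under NP, 7.82 under MBP and 7.83 under the mixture. The control array was the highest and the 3 treated arrays lay below it, within 0.07 of each other. The MBP difference was -0.07 without NP and 0.07 with it, a mean of 0.00 ± 0.09 (SD, n = 2 pairs), and limma gave an adjusted p of 0.99. The NP difference was -0.06 ± 0.09, with an adjusted p of 0.63. For the ligand that Sertoli cells supply to spermatogonia, neither compound therefore gave a difference beyond the spread of its pairs.

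Nrtn, which encodes neurturin, had the widest range of the ligands, 0.33 on the log2 scale. Its signal was 7.74 on the control array, 7.41 under NP, 7.47 under MBP and 7.51 under the mixture. The control array stood above the 3 treated arrays, which lay within 0.09 of each other. Against control, Nrtn was lower by -0.33 with NP (0.796-fold), by -0.27 with MBP (0.829-fold) and by -0.23 with both (0.85-fold), 3 values that share the control array. Between treated arrays the differences were 0.09 for NP+MBP minus NP and 0.04 for NP+MBP minus MBP. The mean of the pairs was -0.15 ± 0.26 for NP (adjusted p 0.58 by limma) and -0.09 ± 0.26 for MBP (0.69), so each was smaller than its own spread. The array annotation places this probe set on no assembled chromosome.

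Artn, which encodes artemin, varied by 0.07 in all. The annotation places it on chromosome 5 from 138390981 to 138394250. The log2 signal was 7.66 on the control array, 7.64 under NP, 7.60 under MBP and 7.65 under the mixture. Groups with and without either compound overlapped, and the mean difference was -0.03 ± 0.05 for MBP and 0.01 ± 0.05 for NP (adjusted p 0.76 and 0.92 by limma).

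Of the co-receptors, Gfra1, the partner of GDNF, was higher on both MBP arrays than on both arrays without MBP. Its probe set spans chromosome 1 from 264614329 to 264876176. The log2 signal was 7.60 on the control array, 7.62 under NP, 7.84 under MBP and 7.76 under the mixture. The arrays with MBP did not overlap those without, and the nearest were 0.14 apart. The MBP difference of Gfra1 was 0.24 without NP and 0.14 with it, a mean of 0.19 ± 0.07 (1.14-fold), and was not called (adjusted p 0.24, unadjusted p 0.0067, limma). Of all non-control probe sets, 2.21% had a larger MBP difference. The NP difference was -0.03 ± 0.07, with an adjusted p of 0.79.

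Gfra2, the co-receptor that prefers neurturin, was lower on both MBP arrays. It lies on chromosome 15 from 51279185 to 51371053. The log2 signal was 8.21 on the control array, 8.15 under NP, 7.99 under MBP and 8.10 under the mixture. The arrays did not overlap, though NP+MBP lay only 0.04 below NP. The mean MBP difference was -0.13 ± 0.12 (0.912-fold), with an adjusted p of 0.35, and 9.93% of all sets had a lower one. For NP it was 0.02 ± 0.12, with an adjusted p of 0.89 (both limma).

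Gfra3, the co-receptor that prefers artemin, was the flattest of the 8. It lies on chromosome 18 from 27167576 to 27195848. The log2 signal was 7.50 on the control array, 7.45 under NP, 7.48 under MBP and 7.46 under the mixture, a range of 0.05. The NP arrays lay below the others by 0.01 at the nearest, an order that was lost after quantile or cyclic loess normalization. The mean differences were 0.00 ± 0.03 for MBP and -0.03 ± 0.03 for NP. Gfra3 was under the filter. In the fit of all 27596 sets its adjusted p was 0.98 for MBP and 0.83 for NP (limma).

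Ret, the signalling receptor of the family, showed the largest difference of the 8 genes. In RGSC3.4 its probe set lies on chromosome 4 from 154448179 to 154491103. The log2 signal of Ret was 7.43 on the control array, 7.46 under NP, 7.95 under MBP and 7.83 under the mixture. Both MBP arrays stood above both arrays without it, by at least 0.38. MBP minus control was 0.52 (1.44-fold) and NP+MBP minus NP, which uses neither of those arrays, was 0.38 (1.3-fold). The mean was 0.45 ± 0.10 (SD, n = 2 pairs; 1.37-fold), and 45 of 27596 probe sets (0.163%) had a larger one. In limma's model the adjusted p was 0.14 (unadjusted 0.00046). It ranged from 0.035 with a prior that follows signal, where Ret was called, to 0.54 with no filter, so the call depended on the setting. Ret passed the filter only through its MBP and NP+MBP arrays and was chosen with its higher signal known. These p-values are therefore given as description and not as a test of Ret. NP alone left the signal within 0.02 of control, and the NP difference was -0.05 ± 0.10, with an adjusted p of 0.71.

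Etv5 followed the same order of groups. Its probe set spans chromosome 11 from 80849243 to 80901787. The log2 signal was 8.28 on the control array, 8.36 under NP, 8.50 under MBP and 8.44 under the mixture. The MBP arrays did not overlap the others, with a gap of 0.07 between NP+MBP and NP. The MBP difference of Etv5 was 0.22 without NP and 0.07 with it, a mean of 0.15 ± 0.11 (1.11-fold), and was not called (adjusted p 0.29, limma). Of all sets, 4.19% had a larger one. The NP difference was 0.01 ± 0.11, with an adjusted p of 0.95.

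Counted over all 8 genes, both MBP arrays were higher than both others for 3 (Gfra1, Ret and Etv5) and lower for 1 (Gfra2). Of all non-control sets 18.8% were higher in this sense and 19.3% lower, and of the sets at or above the filter 28.8% were higher. Ret was known to be higher with MBP when the genes were chosen, so nothing is read from this count. For NP, no gene was higher on both arrays (17.4% of all sets) and 1 was lower, Gfra3 (19.4% of all sets). A difference of 1.2-fold or more, in either direction, was seen for Ret and Nrtn in MBP minus control, where 7.39% of all sets and 2.96% of those at or above the filter reached it. It was seen for Nrtn in NP minus control (8.61% of sets), for Ret in NP+MBP minus control (11.7%) and for Ret in NP+MBP minus NP (3.35%). In NP+MBP minus MBP no gene reached it (3.2% of sets). For Ret and Nrtn the filter depended on the groups compared, so nothing is read from the 1.2-fold counts. The median MBP difference of the 8 genes was 0.00 and the median NP difference -0.03, against 0.00 for each over all sets.

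**Figure D2:**
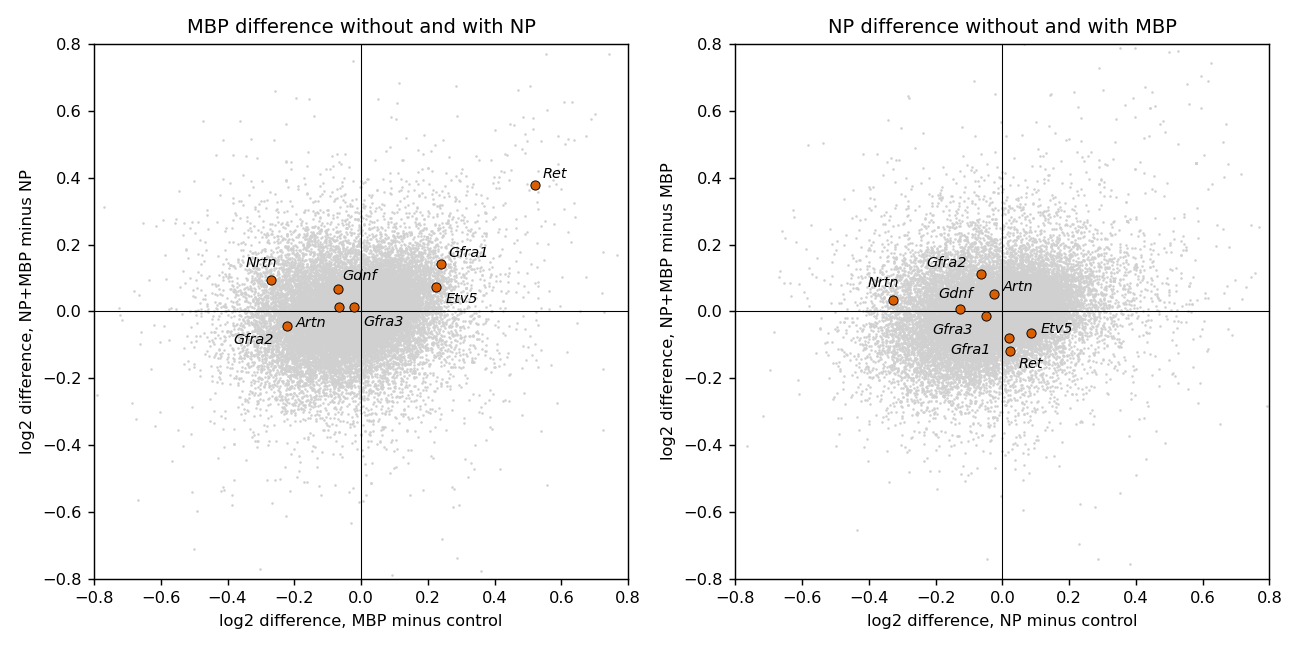
Log2 difference of a compound without the other (horizontal axis) and with it (vertical axis), for MBP on the left and NP on the right; grey points are the 27596 non-control probe sets and orange points the 8 genes, and 12 and 51 sets lie beyond the axes. Ret stands at 0.52 and 0.38 for MBP, apart from the other 7 genes, and for NP no gene lies past 0.12 with MBP present.

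The genes whose 4 values most resembled a member's were then listed for the 2 genes above the filter that varied by 0.3 or more. Likeness was the Euclidean distance between profiles over the 4 arrays, each minus its mean, among 9998 named genes at or above the filter. For Ret the nearest were Nr0b2, an orphan nuclear receptor (distance 0.05), Dhrs3, a retinal reductase (0.06), and Erbb3, a receptor tyrosine kinase (0.07). The log2 signal of Nr0b2 was 7.56 on the control array, 7.60 under NP, 8.09 under MBP and 8.02 under the mixture. For Nrtn the nearest were Cldn23, a claudin (0.01), Nkx1-2, a homeobox gene (0.02), and Pdcd1, an immune checkpoint receptor (0.04). With 4 arrays, many profiles are alike by construction, and nothing is said of shared function.

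**Figure D3:**
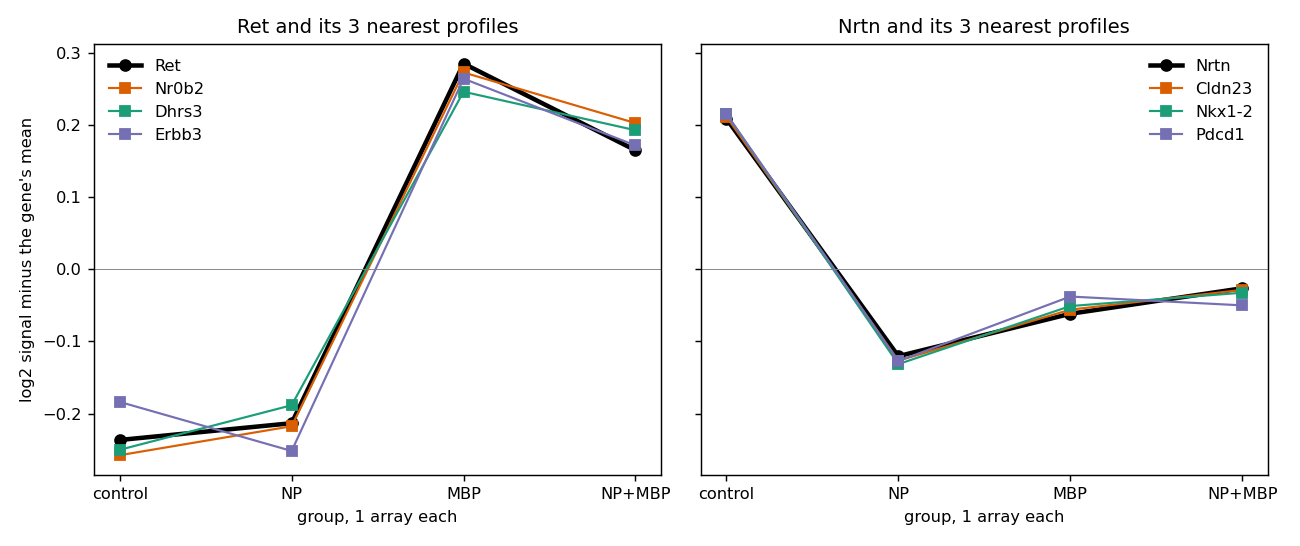
Log2 signal minus each gene's mean (vertical axis) in the 4 groups (horizontal axis, 1 array each) for Ret and Nrtn (black) and the 3 genes nearest to each; lines join the points of a gene and show no order of groups. The Ret group is high on both arrays with MBP, and the Nrtn group is high on the control array.

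The rest of the pathway was read from lists of genes by role, given by counts and medians. In limma's main fit no gene of these lists was called, since no probe set was, and genes below the filter did not enter it. Other settings called some probe sets and were not read for these lists. All lists were chosen with earlier results of these data known. Of 6 other family ligands and receptors, none differed by 1.2-fold in the mean of either compound's pairs, and the median was 0.01 for MBP and 0.00 for NP. Sdc3, a syndecan that binds GDNF, varied by at most 0.02 from its control value of 10.73. Ncam1, an alternative GDNF receptor, differed by 0.09 in MBP minus control and by -0.03 in NP+MBP minus NP, a mean of 0.03 ± 0.09. Gfra4, the persephin co-receptor, differed by 0.08 and -0.05, a mean of 0.02 ± 0.10.

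Genes that carry the RET signal inside the cell were measured for 30 of 32 listed, and 27 lay above the filter. Their median MBP difference was 0.04 and their median NP difference 0.01, against 0.02 and 0.01 over all sets above the filter, and none differed by 1.2-fold in the mean of the pairs. Both MBP arrays were higher for 13 of the 30 and lower for 3, where 28.8% of all sets above the filter and 18.8% of all non-control sets were higher and 19.3% of the latter lower. The largest difference was downward, in Dok2, at -0.25 ± 0.09. Dok2 lay below the filter on every array and differed by -0.31 in MBP minus control. Differences of the genes that were higher were small. Dok1, a docking protein of receptor kinases, was higher by 0.11 ± 0.01 and Frs2, an adaptor of receptor kinases, by 0.09 ± 0.01. Gab2, a scaffold that recruits PI3-kinase, was higher by 0.09 ± 0.03. The members with the highest signal were Akt1 and Akt2, kinases downstream of PI3-kinase, at -0.04 ± 0.02 and 0.07 ± 0.00, and Mapk3, which encodes ERK1, at 0.07 ± 0.06.

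Genes known to respond to GDNF in cultured rodent spermatogonia were measured for 18 of 19, and their median difference was 0.05 (MBP) and -0.02 (NP). Tspan8, a surface tetraspanin of spermatogonial stem cells, was the 1 member past 1.2-fold for MBP. Its log2 signal was 5.64 on the control array, 5.60 under NP, 6.08 under MBP and 6.06 under the mixture, below the filter on every array. The MBP difference was 0.45 ± 0.02. Bcl6b and Lhx1, GDNF targets of rat and mouse spermatogonia, differed in sign between the MBP pairs, at -0.26 and 0.09 for Bcl6b and -0.26 and 0.03 for Lhx1. Among immediate targets of receptor kinase signalling, Egr1 was higher by 0.15 ± 0.00 and Dusp6, a phosphatase of ERK, by 0.14 ± 0.07. Ccnd2, a cyclin, and Spry4, an inhibitor of receptor kinase signalling, which with Egr1 had the highest signal, were at -0.01 ± 0.02 and -0.03 ± 0.03.

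Regulators of Gdnf or Etv5 in Sertoli cells were measured for 21 of 24, with medians of 0.01 for both compounds. Fshr, the receptor for FSH, which raises Gdnf in Sertoli cells, was at -0.13 ± 0.17 for MBP, with a signal of 11.59 on the control array, 11.72 under NP, 11.58 under MBP and 11.46 under the mixture. Jag1, a Notch ligand, was at -0.09 ± 0.01, and Fgfr1, a receptor of fibroblast growth factors, at 0.02 ± 0.02. Tnf was the 1 member past 1.2-fold, at -0.28 ± 0.25, with a mean below the filter. Which cells of the culture made the listed niche factors was not tested. Of 12 measured niche factors, none was higher on both MBP arrays and 4 were lower (18.8% and 19.3% of all non-control sets). On both NP arrays 5 were higher and none was lower (17.4% and 19.4% of all non-control sets). None was past 1.2-fold in the mean of the pairs, and the median difference was -0.03 (MBP) and 0.04 (NP). Kitlg, the ligand of KIT, was at -0.09 ± 0.00 for MBP and 0.14 ± 0.00 for NP. Igf1, a growth factor, was at -0.10 ± 0.04 for MBP, Inhba, a subunit of activin, at -0.03 ± 0.00, and Csf1, the macrophage growth factor, at -0.04 ± 0.03.

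**Figure D4:**
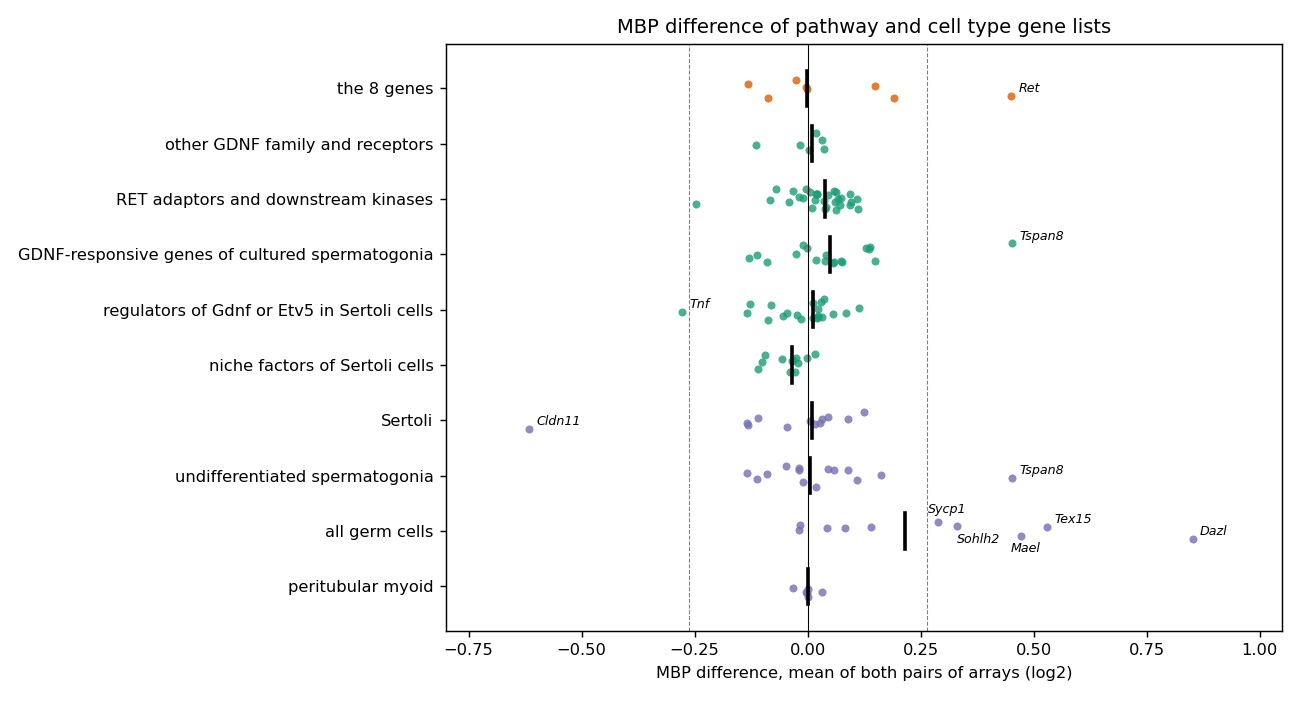
MBP difference in log2, mean of both pairs of arrays (horizontal axis), for the 8 genes, 5 pathway lists and 4 cell type lists (vertical axis); each point is a gene, black bars are list medians, dashed lines mark 1.2-fold either way, and genes past it are named. Ret is the 1 of the 8 past the line, the 5 pathway lists have medians between -0.03 and 0.05, and the germ cell list has a median of 0.21.

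Some markers of germ cells were higher on the arrays where Ret, Gfra1 and Etv5 were higher. Limma's main fit held only the markers above the filter and called none. The fit of all 27596 sets called none for MBP. Of 10 measured germ cell markers (Ddx4 and Sycp3 had no row of their own), 5 (Dazl, Mael, Sycp1, Sohlh2 and Tex15) were at least 1.2-fold higher in the mean of the MBP pairs, none was lower by as much, and 7 were higher on both MBP arrays. Of all non-control sets, 0.91% were higher by 1.2-fold in that mean and 18.8% were higher on both MBP arrays. This list was chosen with earlier results of these data known, so nothing is read from these counts. The other 3 genes of the list, Stra8, Sohlh1 and Dmrt1, overlapped between groups. Their MBP differences were -0.02 ± 0.18, -0.02 ± 0.03 and 0.04 ± 0.12, and each was lower on the MBP array than in control. Below the filter lay 7 of the 10. The summed linear signal of all 10 was 1625 on the control array, 1565 under NP, 1892 under MBP and 1948 under the mixture. Dazl, a germ cell RNA-binding protein, was at 6.56 on the control array, 6.85 under NP, 7.49 under MBP and 7.63 under the mixture. Ret is a spermatogonial as well as a neural gene, and the part of germ cell RNA in these differences was not tested.

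Undifferentiated spermatogonia are the cells that carry GFRA1 and RET. Of their markers without these 2 genes, 14 were measured and 4 lay above the filter. Both MBP arrays were higher for 4 (Nanos3, Epcam, Foxo1 and Tspan8) and lower for 1 (Thy1), against 18.8% and 19.3% of all non-control sets. Their summed signal was 5285 on the control array, 5228 under NP, 5223 under MBP and 5199 under the mixture, a sum that its brightest members Uchl1 and Thy1 dominate. The median difference was 0.00 for MBP minus control, 0.10 for NP+MBP minus NP and 0.00 for the mean of both, and Tspan8 was the 1 marker past 1.2-fold in that mean. Zbtb16, a defining factor of these cells, was at 7.32 on the control array, 7.12 under NP, 7.21 under MBP and 7.32 under the mixture, all below the filter. Uchl1 and Thy1 are also made by other cells and were at -0.01 ± 0.03 and -0.13 ± 0.05.

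For markers of other cells, the median MBP difference was 0.01 for Sertoli cells (12 genes), 0.00 for peritubular myoid cells (6), 0.03 for macrophages (6), -0.01 for endothelium (3) and -0.03 for Schwann and neural cells (8), and of these only Cldn11, a tight junction gene of the Sertoli list, passed 1.2-fold, at -0.62 ± 0.07. Its log2 signal was 10.04 on the control array, 10.02 under NP, 9.37 under MBP and 9.46 under the mixture. In the Leydig cell list it was -0.16 over 6 genes, of which 2 (Cyp17a1 and Hsd17b3) were past 1.2-fold and 4 lay below the filter. The median NP difference in these 6 lists lay between -0.08 for Leydig cells and 0.01. Sox10, which marks Schwann cells, was below the filter with an MBP difference of -0.02 ± 0.08.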

How the data were processed

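Gene-level arrays of 4 groups, 1 array each, were used. The authors deposited log2 signals, summarised by gene-level RMA per the file headers, while the submitters' processing notes name MAS5. Their workbook, which carries the annotation, gave log2 signals that differed by over 1e-09 in 0 cells. The microRNA table was not used. Depth has no meaning for arrays, and the number of arrays limits precision.

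The 8 genes and all lists were chosen with earlier results of these data known. Of 29214 probe sets, 27596 were not controls, and 13798 had a mean at or above the median of those (7.50). Coordinates are those of the annotation (97.5% of 24982 sets overlapped their RGSC3.4 positions).

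The model ~ NP + MBP was fitted to all sets above the filter with limma 3.58.1 in R 4.3.3 (1 residual degree of freedom, Benjamini-Hochberg adjusted p under 0.05). It was also run on simulated arrays in which every set had the same noise. Real sets differ in noise, so that run does not give the power of the model here. Differences of 1.2-fold (0.263 log2) and non-overlapping arrays were counted over all non-control sets. Genes were named by a rule: all 8 genes; from each list those past 1.2-fold and up to 3 with the highest signal; and the 3 nearest profiles. Other genes given from the lists, such as Dok1, Egr1, Kitlg or Zbtb16, were chosen after their values were seen.

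Promoters are RefSeq GRCr8 windows; all 1456 overlapping windows of opposite strands matched as reverse complements. Alternatives were median centring, quantile and cyclic loess normalization, other filters, folds, rows and priors, the workbook values and a model of 1 compound. Python 3.11.15, numpy 2.4.6, pandas 2.3.3 and matplotlib 3.10.9 were used.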

Additional observations from a re-analysis of the deposited data

Results flagged for a closer look

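Several genes differed in sign between a compound's pairs of arrays, that is, without and with the other compound. None of these contrasts was tested, and each rests on 1 array per group. For a given gene the gap between the MBP differences and that between the NP differences are the same quantity, not separate observations.

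For Nrtn the MBP difference was -0.27 without NP and 0.09 with it, and the NP difference -0.33 without MBP and 0.04 with it, both 0.36 apart. For Gfra2 the NP difference went from -0.06 to 0.11 (0.18 apart). For Gdnf the MBP pair read -0.07 and 0.07 and the NP pair -0.13 and 0.01, each 0.13 apart. For Artn the pairs were 0.078 apart, with -0.07 and 0.01 for MBP and -0.03 and 0.05 for NP. For Gfra3 the MBP pair read -0.02 and 0.01 (0.036 apart).

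The NP difference was lower with MBP than without it for Etv5 (0.09 and -0.06, a change of -0.15), Ret (0.02 and -0.12, -0.14) and Gfra1 (0.02 and -0.08, -0.10). In each of these 3 genes the MBP array had the highest signal of the 4.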

How the results depend on the processing

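Of 80 alternative values of the counts, 59 kept within 1.5 times the main count. Ret for MBP, at 0.45, was the 1 mean difference past 1.2-fold, and it kept its sign. Since no shift exceeded 0.034, that sign could not have turned. The workbook values and other choices of row could not change a member's value, since 0 cells differed and each gene had 1 row. They are among the alternatives counted here and below, so these totals overstate how little the values depend on processing. Probe sets called for MBP went from 0 to 14 with arrays centred on their medians, 11 above the 75th percentile of signal (which leaves out all 8 genes) and 100 with a prior that follows signal. Those called for NP went from 0 to 13 with no filter, 1 above the 75th percentile and 5 with that prior. The cause of these shifts was not tested. Of the 8 genes only Ret was called, for MBP with that prior. Members at least 1.2-fold apart in MBP minus control went from 2 to 1 with quantile or cyclic loess normalization, which leave Ret, and to 5 at 1.1-fold. With centred arrays Gfra2 joined Ret and Nrtn there. In NP+MBP minus control the count went from 1 to 2 with centred arrays (adding Nrtn) and 4 at 1.1-fold, and in NP+MBP minus NP to 2 at 1.1-fold. At 1.5-fold it was 0 in every comparison. Genes higher on both MBP arrays went from 3 to 4 with quantile or cyclic loess normalization (adding Gfra3). Genes lower on both MBP arrays went from 1 to 2 with centred arrays (adding Artn). Genes lower on both NP arrays went from 1 to 2 with centred arrays (adding Gdnf) and to 0 with quantile or cyclic loess normalization, and genes higher from 0 to 1 with cyclic loess (Artn). Of 96 alternative values of the members' differences, 94 moved by less than the SD of the pairs, 6 small ones turned their sign, and the largest shift was 0.034. With 1 array per group and signals near background, differences of this size could not be separated from array noise. A replicate block could not be fitted because the labels give no replicate numbers and each group had 1 array.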
